A study of Arabidopsis thaliana with 29 samples.

Results

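Messenger RNA of fusca seedlings of Arabidopsis thaliana was compared with that of wild-type (WT) seedlings across all nuclear genes, with the aim of describing the functions that differ beyond the photosynthesis and pigment genes. The comparison used every nuclear locus with an identifier from AT1G to AT5G, 28496 of the 59999 loci in the count table. Of these, 20317 had counts enough to be tested. It used 6 of the 29 samples in the series, 3 of each group. The WT seedlings are labelled only as that. The fusca seedlings come from the line 2x35S::GFP-HY5/hy5, a hy5 mutant background that expresses a green fluorescent protein fusion of HY5 from a doubled viral 35S promoter active in most tissues, and they were recorded as showing the fusca phenotype. Both groups were 7 days old, had been grown on Murashige and Skoog medium with the sucrose label 0.01, and received white light of 100 µmol per m2 per s for 16 h a day with 8 h of dark. The fusca samples thus share 1 transgenic line and were set apart by their phenotype. Pooling of seedlings is not given in the labels, so the p-values measure only the spread between these samples, which may be technical. Whole seedlings were used, so fewer cells of a type and less RNA per cell cannot be told apart.

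HY5 is a bZIP transcription factor that promotes seedling development in light. COP1 and DET1 belong to the machinery that removes or restrains such factors in darkness, and mutants lacking this machinery arrest as small, purple seedlings, the fusca phenotype. A seedling of this age normally has expanded green cotyledons, has used up its seed oil and takes up mineral nutrients through root hairs.

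Counts over loci lay between 11860094 and 12545563 in the 6 libraries, and levels are given below in CPM, counts scaled to a common effective library size with trimmed-mean factors. HY5 (AT5G11260) was examined first because the line is built on it. It stood at 14.1, 16.2 and 12.1 CPM in WT replicates 1, 2 and 3, and at 129, 187 and 130 CPM in fusca replicates 1, 2 and 3. All fusca values lay above all WT values, and the single distinct library of the same line without a recorded fusca phenotype held 77.4 CPM. On the log2 scale HY5 was 3.39 ± 0.21 (standard error) higher in fusca than in WT (adjusted p = 2.71e-06, edgeR quasi-likelihood test, as for every adjusted p below unless another tool is named).

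Of the 20317 tested nuclear genes, 7046 (34.7%) passed the threshold of an adjusted p under 0.05, with 3234 (15.9%) higher in fusca and 3812 (18.8%) lower. Large changes were mostly decreases with the trimmed-mean scaling, photosynthesis and pigment genes included. Their counts by direction under other scalings are not given here. At least 4-fold changes past the threshold numbered 470 upwards and 916 downwards, and at least 16-fold changes 142 upwards and 210 downwards. The direction of small changes rested on the scaling: 45.9% of the calls were higher with the trimmed-mean scaling used here, 60.1% with upper-quartile factors and 79.5% with library size only, which moved the median of all genes up by 0.15 and 0.45 on the log2 scale. The fold changes below are given as fitted, with nothing subtracted, and are to be read against their median of 0.04 over all tested nuclear genes. Measured over the median of all genes, 0 of the 54 list medians described below reversed with library size only or upper-quartile factors. A change of scaling moves nearly all genes alike and that median is subtracted, so this count could hardly differ. As fitted, some medians below 0 turned positive with library size only. Among them were jasmonate, from -0.32 to 0.13, and cytosolic ribosomal proteins, from -0.26 to 0.17. Fusca replicate 2 stood apart, as described at the end, and left out it gave 10079 calls among 20517 genes (49.1%), 4837 higher (23.6%) and 5242 lower (25.5%). Of the 7046 genes called with all libraries, 6999 (99.3%) were also past the threshold without replicate 2 and none had the opposite sign. Fusca values lay above all WT values at 5022 genes and below them at 5067.

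The share of calls was alike on the chromosomes and differed by abundance. On the 5 chromosomes 15.2% to 16.5% of tested genes were higher and 18.3% to 20.1% were lower. With genes cut into 5 equal groups by level, 20.7% of the least abundant were higher and 13.5% lower, and of the most abundant 12.5% were higher and 27.2% lower.

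Gene lists are described by counts of called members, to be read against 15.9% higher and 18.8% lower over all genes. Some lists lay near these shares, and their counts are not a result about the list. These were autophagy (14.3% higher), brassinosteroid (14.3% each way), cytokinin (18.2% lower), the circadian clock (18.8% higher) and secondary wall genes (16.7% higher). Endoplasmic reticulum folding and cellulose synthases (20.0% lower each) and aquaporins (19.0% higher and 23.8% lower) were others. The same holds for the decreases among mitotic genes (15.0%), salicylate genes (16.7%), indole glucosinolate genes (20.0%) and alpha-expansins (23.5%). It also holds for the increases in light signalling (21.7%). Among cytosolic ribosomal proteins the share of decreases with all libraries (12.1%) was under that of all genes. Counts without fusca replicate 2 are to be read against 23.6% higher and 25.5% lower over all genes.

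The 12 largest increases and 12 largest decreases outside photosynthesis and pigment genes were as follows. OFP9 (AT4G04030), of the OVATE family of transcriptional repressors, was at 0, 0 and 0.101 CPM in WT and at 27.1, 26.3 and 25.2 CPM in fusca, at least 93.1-fold higher against a floor of 3 counts per library. The library of the same line without the fusca label held 23.3 CPM of OFP9, near the fusca level. ICL (AT3G21720), the isocitrate lyase of the glyoxylate cycle that turns seed oil into sugar, was at 6.79, 4.69 and 5.03 CPM in WT and at 271, 491 and 192 CPM in fusca. The fusca values of both genes lay far above the WT values, and the library without the fusca label held 7.77 CPM of ICL. LTP2 (AT2G38530), a lipid transfer protein of the cell surface, rose from 48.0 ± 9.73 to 1844 ± 373 CPM (SD, n = 3). ACC2 (AT1G36180), a second acetyl-CoA carboxylase for fatty acid synthesis, rose from 9.93 ± 1.38 to 256 ± 71.2 CPM (SD, n = 3). The other 8 of the 12 largest increases were chr31, of the CLASSY group of chromatin remodellers in RNA-directed DNA methylation, the transcription factors NAC103, NAC044 and ZAT10, the desaturase-like ADS4, the repair gene GMI1, the osmotin-like OSM34 and the glycine-rich wall protein GRP5, with log2 fold changes from 3.71 for GRP5 to 4.66 for chr31. For the 12 increases the largest adjusted p was 0.000234 (edgeR quasi-likelihood test), for ZAT10.

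Of the 12 largest decreases, COR15A, COR15B and RK2 had at most 5 counts in any fusca library. COR15B (AT2G42530), a protein that shields chloroplast membranes in the cold, was at 63.2, 50.5 and 74.8 CPM in WT and at 0.0675, 0.145 and 0 CPM in fusca, at least 303-fold lower. Its neighbour COR15A (AT2G42540) was at 49.4, 40.4 and 52.7 CPM in WT and at 0, 0.363 and 0.268 CPM in fusca. No fusca library came near a WT library at either gene. CYP82C4 (AT4G31940), which hydroxylates the coumarins that roots release under iron shortage, fell from 161 ± 79.4 to 0.295 ± 0.214 CPM (SD, n = 3). The others were CYP706A6, the receptor-like kinase RK2, the ferric reductases FRO2 and FRO6, the jasmonate enzyme AOC2, the cytosolic fumarase FUM2, the chloroplast beta-amylase BAM3, the sucrose phosphate synthase ATSPS4F and CP12-2, a regulator of carbon fixation enzymes that the exclusion by name had not covered. Their log2 fold changes ran from -7.29 for CYP706A6 to -5.97 for CP12-2, and the largest adjusted p of the 12 was 3.23e-06 for CYP82C4 (edgeR quasi-likelihood test).

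**Figure D1:**
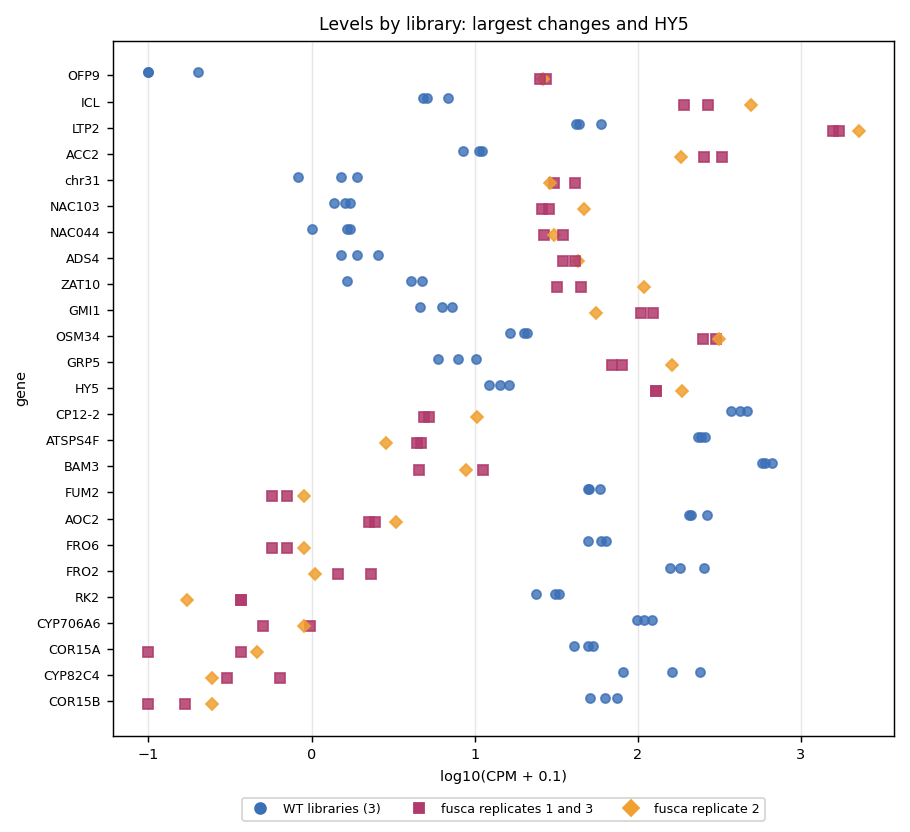
Levels of HY5 and of the 12 largest increases and 12 largest decreases in each of the 3 WT and 3 fusca libraries, on a log10(CPM + 0.1) axis with 1 gene per row. The WT and fusca points separate at every gene shown, and fusca replicate 2 lies highest of the 3 fusca libraries at ICL and lowest at GMI1.

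Most tested genes of the plastid ribosome, which translates the chloroplast genome, fell. Of 18 tested genes matched by name to it 17 fell and 0 rose, with a median log2 fold change of -1.98. One of the 18, MOP10 (AT5G05500), is a proline-rich protein that a synonym brought in, and without it 16 of 17 fell and 0 rose, with a median of -2.03. PSRP3/1 (AT1G68590) was at 400, 399 and 484 CPM in WT and at 80.5, 79.7 and 81.1 CPM in fusca, and all fusca values lay below the WT values. RPL3P (AT3G17465), the member that was not past the threshold, had a log2 fold change of 0.31. Of 6 sigma factors, the nuclear-encoded subunits that direct the bacterial-type plastid RNA polymerase to promoters, SIG1, SIG2, SIG3, SIG4 and SIG6 fell. SIG4 (AT5G13730) went from 52.1 ± 3.51 to 5.36 ± 2.35 CPM (SD, n = 3), whereas SIG5 had a log2 fold change of 0.60 (adjusted p = 0.0935, edgeR quasi-likelihood test) and rose by 0.66 without fusca replicate 2. SCA3, the phage-type plastid RNA polymerase, had a log2 fold change of -0.21 and was not past the threshold.

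Fatty acid and galactolipid synthesis in the plastid followed the same direction, with 13 of 18 tested genes lower, 0 higher and a median of -0.88. FAD5 (AT3G15850), FAD7 (AT3G11170) and ACP4 (AT4G25050), 2 plastid desaturases and a leaf acyl carrier protein, changed by -2.64, -2.51 and -2.47 on the log2 scale. FAD2 and FAD3, the desaturases of the endoplasmic reticulum, had values of -0.23 and 0.38 and were not past the threshold. Of 14 tested genes of starch and sugar transport 9 fell and 3 rose, with a median of -1.72. BAM3 (AT4G17090), which breaks down starch at night, was at 581, 599 and 668 CPM in WT and at 4.45, 8.72 and 11.2 CPM in fusca. TPT (AT5G46110), which exports triose phosphate from the chloroplast, fell from 1153 ± 122 to 109 ± 6.48 CPM (SD, n = 3), and PGM1 and SEX1, of starch synthesis and breakdown, changed by -2.90 and -1.98 on the log2 scale. The 3 that rose were CWINV1, a cell wall invertase, STP4, a hexose importer of the plasma membrane, and GPT2, a plastid glucose phosphate importer. The call for GPT2 was lost without fusca replicate 2, with a log2 fold change of 0.85 and an adjusted p of 0.0603 (edgeR quasi-likelihood test).

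Genes of mineral nutrient uptake and assimilation fell more often than they rose. Of 15 iron genes 13 fell and 0 rose, with a median of -1.40. IRT1 (AT4G19690), the iron transporter of the root epidermis, was at 298, 310 and 529 CPM in WT and at 4.05, 7.85 and 6.43 CPM in fusca. FRO2 (AT1G01580), the root surface ferric reductase that works beside it, was at 157, 181 and 255 CPM in WT and at 1.35, 0.945 and 2.21 CPM in fusca. Both groups were far apart at both genes, with log2 fold changes of -5.96 and -7.02 (adjusted p = 2.01e-06 and 8.26e-07, edgeR quasi-likelihood test). The 4 bHLH factors of group Ib, which partner FIT in the iron deficiency response, all fell, from -1.58 for BHLH39 to -6.16 for BHLH100, and FIT itself (AT2G28160) fell by 1.40 on the log2 scale. The ferritins FER1, FER3 and FER4, which store iron and are known to rise when iron is plentiful, fell as well, by 1.24, 1.84 and 0.67. PYE and FRO3 were not past the threshold, at 0.00 and -0.05.

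**Figure D2:**
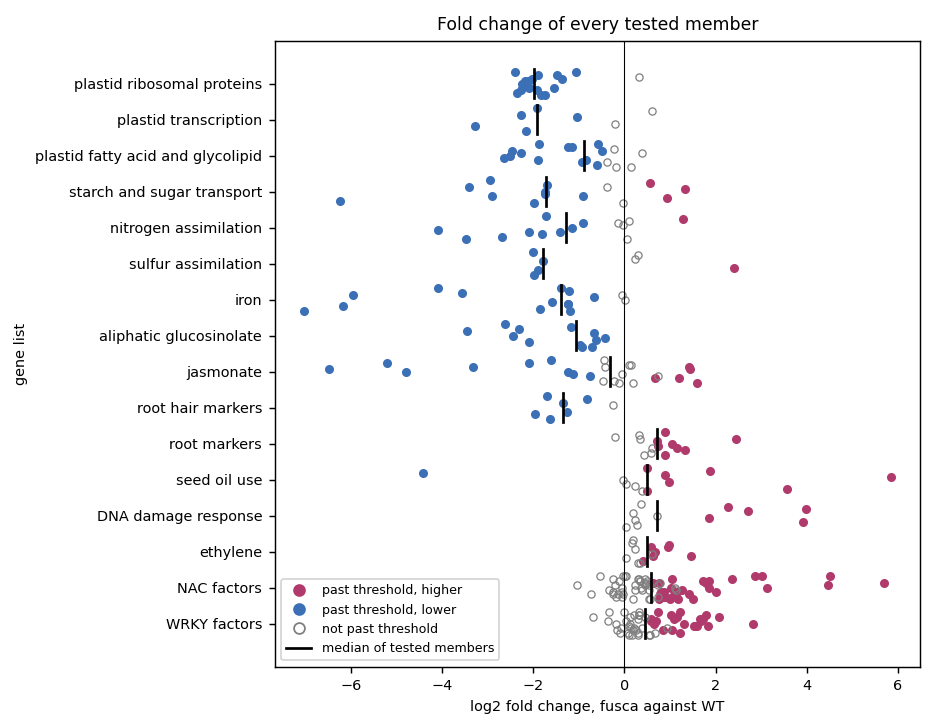
Log2 fold change, fusca against WT, of every tested member of 16 gene lists chosen after their values were seen. Filled points passed the threshold, open points did not, and the vertical bars are the medians, from -1.98 for plastid ribosomal proteins to 0.72 for root markers and for the DNA damage response.

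Among 14 nitrogen genes 9 fell and 1 rose, with a median of -1.28. GLN2 (AT5G35630), the chloroplast glutamine synthetase, was at 2230, 2084 and 2523 CPM in WT and at 120, 158 and 124 CPM in fusca. Its partner GLU1 (AT5G04140), a ferredoxin-dependent glutamate synthase, fell from 1568 ± 82.6 to 245 ± 30.6 CPM (SD, n = 3). The 2 nitrate reductases differed. NIA2 (AT1G37130) changed by -2.09 and NIA1 (AT1G77760) by -0.04 on the log2 scale, the latter not past the threshold. Among the cytosolic glutamine synthetases GLN1;2 fell by 1.73, GLN1;3 rose by 1.29, and GLN1;1 stood at 0.05 and was not past the threshold. In the sulfur list 4 of 7 genes fell and 1 rose, with a median of -1.78. The 3 APS reductases APR1, APR2 and APR3, which commit sulfate to reduction, fell by 2.00, 1.98 and 1.90, while LSU1 (AT3G49580), which marks low sulfur, was at least 3.70-fold higher, from 0.184 to 1.04 CPM. In the phosphate list 4 of 9 tested genes fell and 1 rose, with the sulfolipid genes SQD1 (AT4G33030) and SQD2 (AT5G01220) at -2.25 and -1.91.

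Glucosinolate genes were counted by branch. All 12 genes of aliphatic glucosinolates, the methionine-derived mustard oil precursors, fell, with a median of -1.07. CYP79F1 (AT1G16410), which acts on chain-elongated methionine, was at 124, 131 and 98.9 CPM in WT and at 8.84, 10.2 and 13.3 CPM in fusca, and the groups did not overlap at any of the 12. With library size only, 6 of the 12 were lower and 0 higher, beside 2445 lower and 9503 higher over all tested nuclear genes. In the tryptophan-derived indole branch 3 of 10 genes rose and 2 fell, with CYP79B2 (AT4G39950) at 42.9 ± 1.51 CPM in WT and 111 ± 6.81 CPM in fusca (SD, n = 3). CYP79B3 and the regulator MYB34 rose by 0.79 and 0.56, and SUR1 and TSB1 fell by 0.52 and 0.43. The median of the indole list was -0.01, and its share of decreases (20.0%) lay near that of all genes (18.8%). Without fusca replicate 2 it had 4 genes higher and 4 lower.

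Of 24 tested jasmonate genes 9 fell and 5 rose, and members of both synthesis and signalling were found in each direction. LOX2 (AT3G45140), AOS (AT5G42650) and AOC2 (AT3G25770), plastid enzymes of jasmonate synthesis, changed by -5.20, -3.31 and -6.47 on the log2 scale. LOX2 was at 722, 773 and 1026 CPM in WT and at 22.5, 14.8 and 31.1 CPM in fusca, with no overlap. CORI3, a wound marker, changed by -4.80, whereas the regulator MYC2 (AT1G32640) rose from 17.9 ± 1.14 to 40.8 ± 2.24 CPM (SD, n = 3) and the repressor JAZ1 rose by 1.44. The paralog AOC4 rose by 1.43 on the log2 scale, from 34.7 ± 2.32 to 93.4 ± 32.1 CPM (SD, n = 3). The median of the jasmonate list was -0.32. In the salicylate list 3 of 12 tested genes rose and 2 fell, and PR1 had no counts in any of the 6 libraries. In pattern-triggered defence and camalexin 6 of 13 rose and 3 fell, with WRKY33 (AT2G38470) at 1.22 and the oxidase gene RBOHD (AT5G47910) at -1.23.

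The large detoxification families moved in both directions. Of 165 tested cytochromes P450, 55 rose and 37 fell, of 35 tau and phi glutathione transferases 18 rose and 7 fell, and of 54 UDP-glycosyltransferases 21 rose and 13 fell. GSTF3 (AT2G02930) rose by 4.08 and GSTU18 (AT1G10360) fell by 3.33. UGT74E2 (AT1G05680), which conjugates indole butyric acid, rose from 2.80 ± 0.244 to 25.4 ± 2.79 CPM (SD, n = 3). Among 28 cysteine-rich receptor-like kinases 8 rose and 11 fell, and CRK12 (AT4G23200) was at least 22.9-fold lower. The medians of the glycosyltransferases and the kinases were -0.08 and -0.13. Members of these families resemble each other, and the division of reads among close copies is uncertain.

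Of 12 genes of seed oil use 7 rose and 1 fell. ICL and MLS (AT5G03860), the 2 enzymes particular to the glyoxylate cycle, rose by 5.85 and 3.57 on the log2 scale, and MLS was at 1.63, 0.632 and 1.61 CPM in WT and at 11.6, 20.9 and 13.6 CPM in fusca. PCK1 (AT4G37870), which turns the product towards sugar, rose from 153 ± 9.76 to 561 ± 53.4 CPM (SD, n = 3). The peroxisomal genes LACS7 and CSY3 rose by 0.97 and 0.89. PMDH2 (AT5G09660), a peroxisomal malate dehydrogenase that also serves photorespiration, was the exception at -4.41. The catalases, which remove peroxisomal hydrogen peroxide, showed the same contrast within 1 family. CAT2 (AT4G35090), the catalase of photosynthetic tissue, went from 1141 ± 26.6 to 212 ± 49.1 CPM and CAT3 (AT1G20620) from 670 ± 48.0 to 3544 ± 296 CPM (SD, n = 3). Of the 14 tested genes of reactive oxygen scavenging 4 rose and 5 fell, with a median of -0.28.

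Among 5 tested genes of mitochondrial stress 3 rose and 1 fell, with the alternative oxidase AOX1A (AT3G22370) at 17.0 ± 1.79 CPM in WT and 50.8 ± 7.94 CPM in fusca (SD, n = 3). OM66, an outer membrane ATPase, rose by 2.04, and NDA1, an internal NADH dehydrogenase, fell by 1.48. Of 14 autophagy genes 2 rose, ATG8B by 2.12 and the cargo receptor NBR1 by 1.19, and 0 fell. Of 14 sugar starvation genes 4 rose and 1 fell. The one that fell, DIN10 (AT5G20250), was at 892 ± 69.1 CPM in WT and 167 ± 30.4 CPM in fusca (SD, n = 3), while ASN1, a classical starvation marker, was not past the threshold at -0.18. In the senescence list ORE1 rose by 1.85 and WRKY6 by 0.68, and SAG12 had no counts in any of the 6 libraries.

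Of 11 tested markers of the DNA damage response 5 rose and 0 fell, and all 11 had positive fold changes, with a median of 0.72. GMI1 (AT5G24280), a repair protein induced by ionising radiation, was at 6.25, 7.13 and 4.53 CPM in WT and at 104, 55.4 and 123 CPM in fusca. SMR7 (AT3G27630), an inhibitor of cyclin-dependent kinases, was at 0.453, 0.632 and 0.403 CPM in WT and at 6.55, 9.30 and 7.10 CPM in fusca. Neither gene overlapped between the groups. SMR5, a related inhibitor, was at least 4.55-fold higher, and PARP2 and XRI1 rose by 2.26 and 1.85. SOG1 and BRCA1 had values of 0.23 and 0.72 and were not past the threshold. The mitotic cyclin CYCB1;1 (AT4G37490), which also rises upon DNA damage, went from 9.47 ± 0.185 to 32.7 ± 5.91 CPM (SD, n = 3), while CYCB1;2, MCM3 and MCM7 fell by 0.53, 0.46 and 0.51. The other 16 of the 20 mitotic genes were not past the threshold, and the median of the list was -0.18. NAC044 and NAC085, factors that act in the G2 arrest after damage, also rose. NAC044 (AT3G01600) was at 1.54, 1.62 and 0.906 CPM in WT and at 26.5, 30.4 and 34.6 CPM in fusca, and NAC085 (AT5G14490) was at least 13.2-fold higher.

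Among histone genes 6 of 21 fell and 1 rose. The stress-inducible linker histone HIS1-3 (AT2G18050) rose from 0.838 ± 0.556 to 15.0 ± 2.83 CPM (SD, n = 3), and the median of the list was -0.47. Of 33 genes matched as cytosolic ribosomal proteins 4 fell and 0 rose, with a median of -0.26. The largest of these decreases, -2.20, was at RPL27 (AT5G40950), whose product is known as a protein of the plastid ribosome although its symbol matched the cytosolic pattern. Of 40 proteasome subunits 12 rose and 0 fell, with a median of 0.39. The counts of both families depended on fusca replicate 2. Without it 27 of the 33 ribosomal proteins fell and 0 rose, with a median of -0.54, and of the proteasome subunits 16 rose and 2 fell, with a median of 0.17. Over all genes 23.6% were higher and 25.5% lower without that replicate. Of 10 folding helpers of the endoplasmic reticulum 2 fell, BIP2 by 0.69 and ERDJ3B by 0.48, and 0 rose, with a median of -0.33. Of 6 tested heat shock genes 0 passed the threshold in edgeR, 0 had an unadjusted p under 0.05 and 0 passed in DESeq2.

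Transcription factors of the NAC and WRKY families, many of which act in stress and senescence, rose without a counterpart in the other direction. Of 72 tested NAC genes 31 rose and 0 fell, and of 55 tested WRKY genes 23 rose and 0 fell, with medians of 0.59 and 0.44. NAC103 (AT5G64060) was at 1.63, 1.26 and 1.51 CPM in WT and at 25.8, 46.5 and 28.5 CPM in fusca. WRKY48 (AT5G49520) rose from 3.64 ± 0.480 to 25.8 ± 8.67 CPM (SD, n = 3). Both were higher in all fusca libraries than in any WT library. Without fusca replicate 2, 35 of 74 NAC and 32 of 55 WRKY genes rose and 0 of either fell. The shares over all genes were then 23.6% higher and 25.5% lower.

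**Figure D3:**
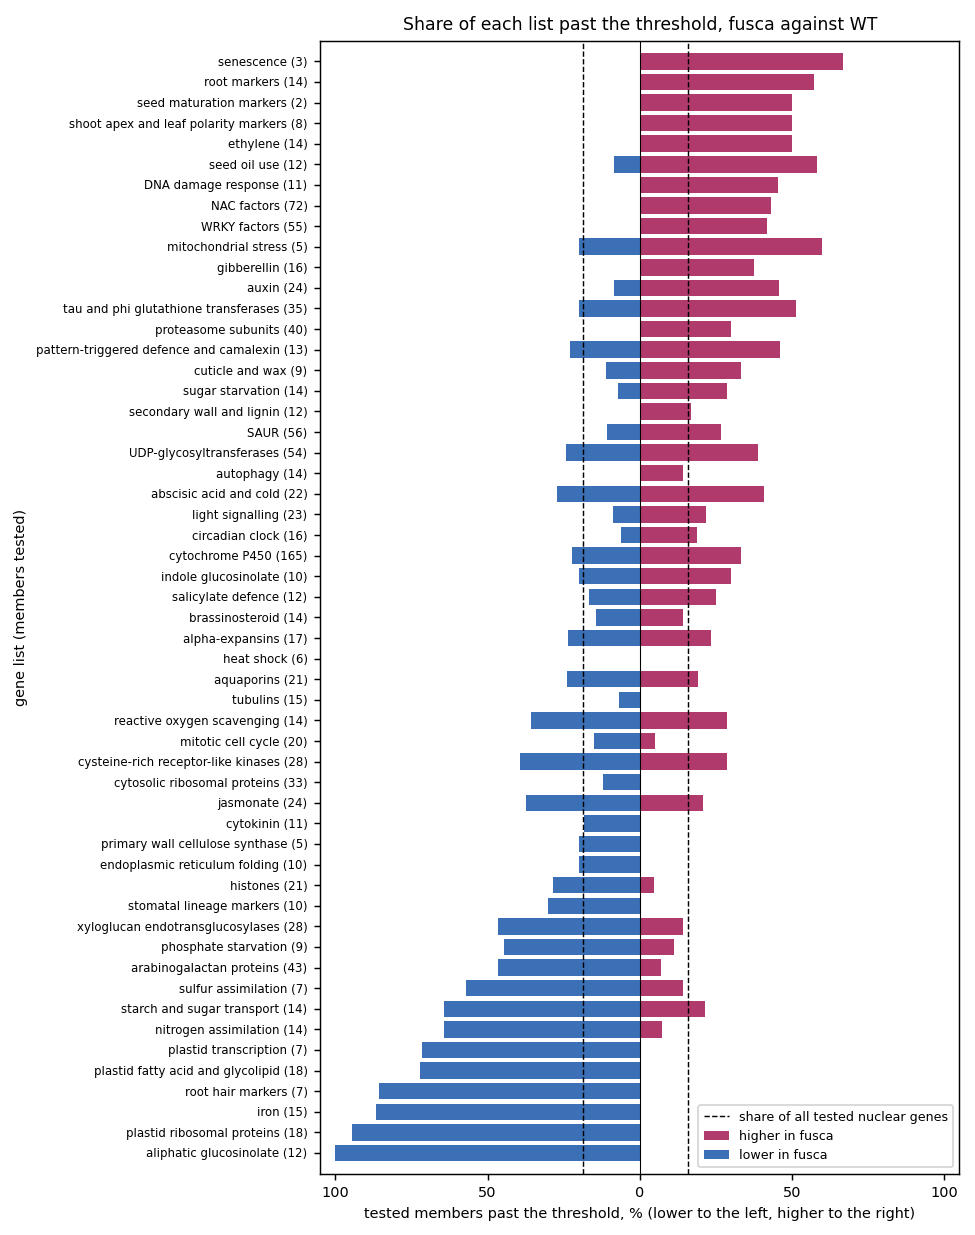
Share of the tested members of each of the 54 gene lists that passed the threshold higher (right) or lower (left) in fusca, with the number tested in brackets and dashed lines at 15.9% and 18.8%, the shares over all tested nuclear genes. The bars run from aliphatic glucosinolates, with 12 of 12 lower, to senescence, with 2 of 3 higher.

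The labels do not give the strand of the sequencing kit, so the counts of genes that overlap another annotated gene are uncertain. Among the genes with values in the text these are COR15B, RK2, BAM3, ATSPS4F, GMI1, SMR5, TPT, GLU1, FRO3, FER1, FER4, APR1, APR2, APR3, SIG3, SIG4, SCA3, PSRP3/1, RPL3P, CAT2, CSY3, DIN10, ASN1, NBR1, MYC2, WRKY33, GSTU18, MCM7, PBD1, SPA3, PIF1, ERS1, ARR6, CASP5, ESB1, PYK10, EXPA7, EXPA18, XCP1, MT1A, EXT3, PRP4 and PP2A-3.

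Of 14 tested ethylene genes 7 rose and 0 fell, and all 14 fold changes were positive. The receptors ETR2, ERS1 and ERS2 rose by 0.98, 0.67 and 0.95. Of 24 auxin genes 11 rose and 2 fell, among them GH3.3 (AT2G23170), which conjugates auxin, at 2.31, the synthesis gene TAA1 at 1.27 and the repressor gene IAA29 at 3.32. Of 16 tested gibberellin genes 6 rose and 0 fell, with the receptor GID1B (AT3G63010) at 1.52. Of 22 tested genes of abscisic acid and cold 9 rose and 6 fell. COR15A and COR15B fell by far more than the others, KIN2 fell by 0.83, and RD29A was not past the threshold at 0.11, while ABI5 (AT2G36270) rose from 1.79 ± 0.589 to 6.54 ± 1.64 CPM (SD, n = 3). In the brassinosteroid list 2 of 14 rose and 2 fell, with the synthesis gene DWF4 (AT3G50660) at -1.54. In the cytokinin list 2 of 11 fell and 0 rose, ARR6 by 0.71 and ARR7 by 0.80.

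Clock and light signalling genes were mostly not past the threshold, and neither were most tested nuclear genes, of which 34.7% passed it. Of 16 clock genes 3 rose and 1 fell, with PRR7 (AT5G02810) at 1.54 and LHY (AT1G01060) at -1.21. Time of harvest was not among the labels used. Of 23 light signalling genes 5 rose and 2 fell. SPA3 (AT3G15354), a partner of COP1, was at 53.1, 58.6 and 65.4 CPM in WT and at 20.5, 13.4 and 20.9 CPM in fusca, and the blue light receptor CRY1 (AT4G08920) went from 132 ± 5.96 to 65.7 ± 1.06 CPM (SD, n = 3). PHYA, PIF1, PIF4 and BBX22 rose by 0.82, 0.92, 0.75 and 0.89, and PIF3 rose as well. HYH, COP1 and DET1 had values of -0.15, -0.25 and 0.08 and were not past the threshold.

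Wall and surface genes changed by branch. Of 28 tested xyloglucan endotransglucosylases, which cut and rejoin wall hemicellulose, 13 fell and 4 rose, with XTH13 (AT5G57540), XTH26 (AT4G28850) and XTH12 (AT5G57530) at -3.53, -3.38 and -3.36. The library without the fusca label held 1.68, 4.68 and 5.74 CPM of these 3. Their means were 8.62, 12.5 and 18.7 CPM in WT and 0.736, 1.18 and 1.80 CPM in fusca. Of 43 tested arabinogalactan proteins 20 fell and 3 rose, and FLA13 (AT5G44130) fell by 5.01 on the log2 scale from 324 ± 42.5 CPM in WT (SD, n = 3). The median of the latter list was -0.47. With library size only 13 of its 43 tested members fell and 9 rose, while 2445 of all tested nuclear genes fell and 9503 rose. Of 17 tested alpha-expansins 4 rose and 4 fell, with EXP3 (AT2G37640) from 45.8 ± 1.61 to 175 ± 25.7 CPM (SD, n = 3) and the root hair members EXPA7 and EXPA18 at -1.36 and -1.69. Of 5 cellulose synthases of the primary wall CESA2 fell by 1.13 and the other 4 were not past the threshold, and of 12 genes of the secondary wall 2 rose, LAC4 and XCP1, by 0.48 and 0.67. In the cuticle list 3 of 9 tested genes rose and 1 fell. CER1 (AT1G02205), which makes the alkanes of wax, went from 38.0 ± 5.58 to 4.09 ± 2.38 CPM and CER6 (AT1G68530), which elongates its precursors, from 334 ± 23.7 to 591 ± 33.7 CPM (SD, n = 3). Of 56 tested SAUR genes 15 rose and 6 fell, and of 21 aquaporins 4 rose and 5 fell, with an aquaporin median of -0.13. Of 15 tubulins 0 rose and 1 fell, TUB8, by 0.39, and with library size only TUB8 stood at 0.06.

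Markers of organs and cell types gave the following in the whole seedlings. Of 14 root markers 8 rose and 0 fell, with a median of 0.72, and their summed level was 3621 to 3704 CPM in the WT libraries and 11854, 6336 and 8850 CPM in fusca replicates 1, 2 and 3. Most of that sum was PYK10 (AT3G09260), the beta-glucosidase of root ER bodies. The endodermal genes CASP5 (AT5G15290), MYB36 (AT5G57620) and ESB1 (AT2G28670) rose by 2.44, 1.15 and 0.88. Of 7 root hair markers 6 fell and 0 rose, and their summed level was 151 to 216 CPM in WT and 75.4, 47.1 and 57.5 CPM in fusca. The single library of the same line without the fusca label held 96.8 CPM, also below the WT libraries. PRP3 (AT3G62680), a root hair wall protein, was at 69.6, 80.2 and 101 CPM in WT and at 29.1, 13.7 and 22.0 CPM in fusca. The part of these shifts in the lower iron genes, which roots express, was not tested.

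Of 8 tested shoot apex and leaf polarity markers 4 rose and 0 fell, among them the meristem genes STM (AT1G62360), from 1.44 ± 0.0786 to 7.05 ± 2.08 CPM, and KNAT1 (AT4G08150), from 13.9 ± 1.37 to 38.4 ± 2.84 CPM (SD, n = 3). Their summed level was 167 to 189 CPM in WT and 181, 231 and 247 CPM in fusca, and WUS and CLV3 had too few counts to be tested. Of 10 stomatal markers 3 fell and 0 rose. FAMA (AT3G24140), the factor of the last division, was at 19.2, 18.9 and 21.4 CPM in WT and at 3.78, 2.98 and 4.15 CPM in fusca, and the guard cell channel KAT1 (AT5G46240) fell by 1.28. EPFL9, a signal from the leaf interior that promotes stomata, fell by 2.92. The early lineage genes SPCH, MUTE and TMM were not past the threshold, at 0.20, 0.13 and 0.50.

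The 12 most abundant nuclear genes were not the same in WT and fusca. Per kilobase of gene span, introns included, the 12 most abundant nuclear genes in WT were 10 photosynthesis genes, led by RBCS1A, and THI1 (AT5G54770), of thiamine synthesis, and GER3 (AT5G20630), a germin-like protein. All 12 fell. In fusca the 12 were led by AT1G09310 and held AT1G54410 and AT3G41979, a ribosomal RNA locus. They also held PYK10, PBP1, which binds PYK10, the lipid transfer proteins LTP2 and LP1, and the extensins EXT3 and EXT4. The remaining ones were the proline-rich PRP4, the aquaporin TIP2 and the metallothionein MT1A. AT1G09310 and AT3G41979 also overlap another annotated gene. EXT4 (AT1G76930) went from 165 to 1369 CPM per kilobase and PYK10 from 1053 to 2647 CPM per kilobase. MT1A, PRP4 and AT1G09310 were already at 1835, 1501 and 1253 CPM per kilobase in WT. The last of the 12 in WT, PSBR, was at 2294 CPM per kilobase there. PRP4 was not past the threshold (adjusted p = 0.537, edgeR quasi-likelihood test), and the groups overlapped at EXT3. Among genes at 50 CPM or more, the 10 with the smallest spread over the 6 libraries included PP2A-3 (AT2G42500), a phosphatase subunit, at 106 ± 3.99 and 104 ± 2.15 CPM, and the auxin receptor TIR1 (AT3G62980) at 93.3 ± 2.11 and 89.6 ± 2.55 CPM in WT and fusca (SD, n = 3).

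Fusca replicate 2 differed by at least 2-fold from the mean of the other 2 fusca libraries at 1495 nuclear genes, 588 above and 907 below. For replicates 1 and 3 the number was 400 and 324, and it was 147 to 182 for the WT libraries. The deviation ran with gene length. Protein-coding genes were cut into 5 equal groups by span. In the shortest group, with a median span of 1203 bases, replicate 2 lay 0.40 above the other 2 in the median on the log2 scale, and in the longest group, with a median span of 4624 bases, it stood at -0.36 against them. Replicates 1 and 3 ran the other way, from -0.13 and -0.25 in the shortest group to 0.14 and 0.22 in the longest, since each library is set against a mean that holds replicate 2. In the WT libraries the same medians stayed between -0.08 and 0.07. TOR (AT1G50030), a growth kinase with a long gene, was at 74.5, 18.8 and 81.8 CPM in fusca replicates 1, 2 and 3, and PBD1 (AT3G22630), a proteasome subunit with a short gene, was at 43.5, 104 and 33.9 CPM. The 10 named genes farthest above in replicate 2 had spans of 720 to 2099 bases and the 10 farthest below spans of 3534 to 17748 bases.

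**Figure D4:**
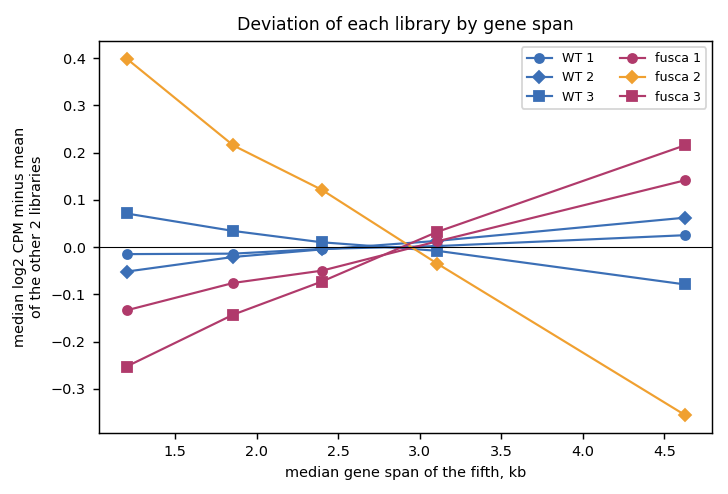
Median difference in log2 CPM between each library and the mean of the other 2 of its group, over 5 equal groups of protein-coding genes by span, plotted at the median span of each group in kilobases. Fusca replicate 2 falls from 0.40 to -0.36 with span, while the WT libraries stay between -0.08 and 0.07.

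The length dependence touched the calls. With all libraries, 19.8% of the shortest group were higher and 19.7% lower in fusca, and 10.8% and 16.5% of the longest group. Without replicate 2 these shares were 22.1% and 29.3% in the shortest group and 27.4% and 19.8% in the longest. Seed storage transcripts were another difference of this library. CRA1 (AT5G44120), a cruciferin, was at 0.607, 54.1 and 0.536 CPM in fusca replicates 1, 2 and 3, and CRC (AT4G28520) and SESA2 (AT4G27150), 2 further storage proteins, were at 67.4 and 40.2 CPM in replicate 2 and at no more than 0.405 CPM in the other 5 libraries. With all libraries CRA1 had a log2 fold change of 3.44 that was not past the threshold (edgeR adjusted p = 0.112), and without replicate 2 it fell by 1.54 (edgeR adjusted p = 0.0314). Of the 16 seed maturation markers 2 were tested, LEC1 had no counts in any library, and ABI3 (AT3G24650) rose by 1.64 at 0.282 CPM in WT and 0.903 CPM in fusca, a call that was lost with DESeq2, with no count filter, with the replicate block and without WT replicate 2, WT replicate 3 or fusca replicate 3.

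Counts of 0 in 1 direction were set beside looser and other tests. At an unadjusted p under 0.05 in edgeR, 1 NAC and 1 WRKY gene were lower, and 0 genes of the ethylene, DNA damage, gibberellin, autophagy, proteasome, root and shoot apex lists were lower. At the same level 0 iron, aliphatic glucosinolate, root hair, stomatal, plastid ribosomal and cytosolic ribosomal genes were higher, while 1 gene each of plastid transcription, plastid fatty acids, tubulins and endoplasmic reticulum folding and 2 of cytokinin were higher. DESeq2 gave 0 calls in each of these directions. The shares of all genes at the looser level are not given here. A count of 0 says little in a short list, such as root hair (7 tested) or shoot apex (8 tested).

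The descriptions of plastid functions, nutrients, aliphatic glucosinolates, seed oil use, DNA damage, ethylene and the NAC and WRKY families held without replicate 2 in the direction of their medians and in which direction had more calls. Without it 17 of 18 plastid ribosomal proteins, 13 of 15 iron genes, 9 of 14 nitrogen genes and all 12 aliphatic glucosinolate genes fell, and 9 of 12 seed oil, 7 of 11 DNA damage and 8 of 14 ethylene genes rose. These counts stand beside 23.6% higher and 25.5% lower over all genes without that replicate, so more calls in a list are not by themselves a stronger result. Among lists with 5 or more tested members the median moved most for sulfur assimilation, from -1.78 to -1.41, followed by plastid and cytosolic ribosomal proteins, cellulose synthases and aquaporins.

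**Figure D5:**
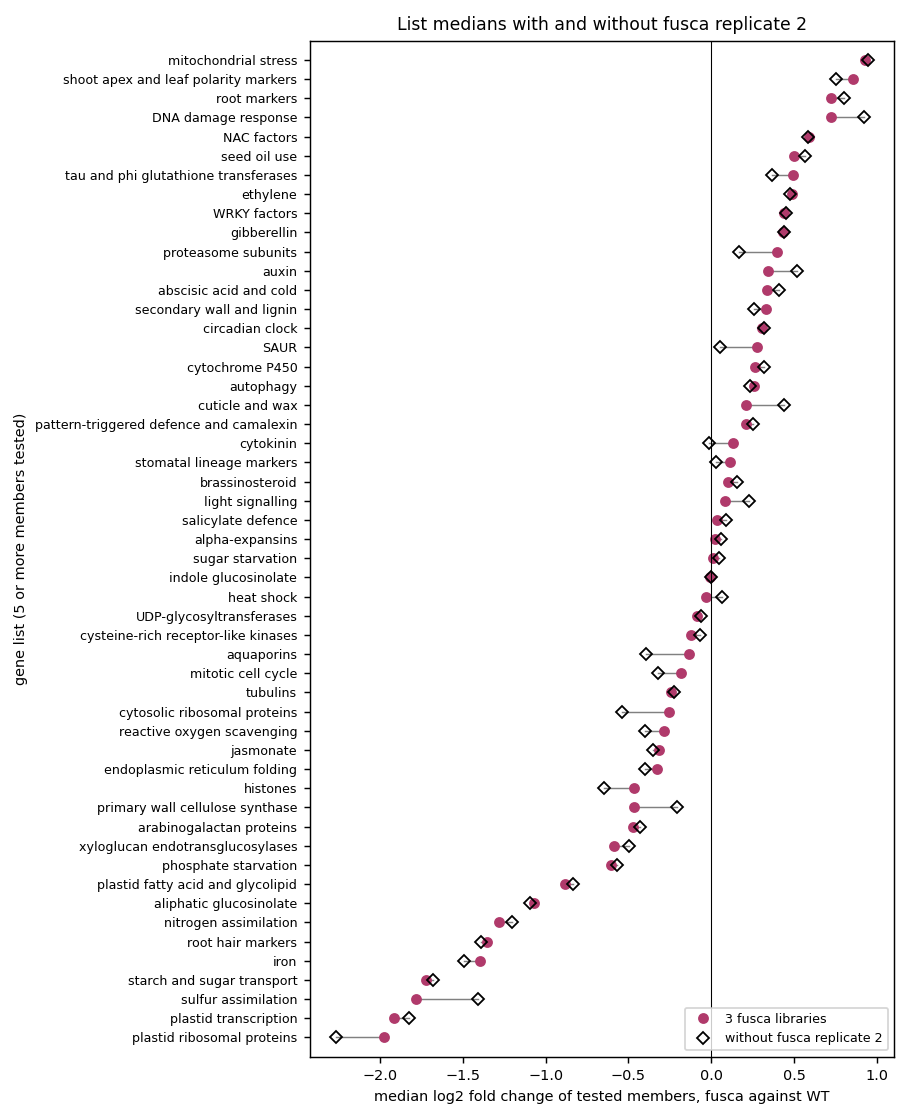
Median log2 fold change of the tested members of each list with 5 or more tested members, with all 3 fusca libraries (filled) and without fusca replicate 2 (open). Plastid ribosomal proteins are lowest in both, at -1.98 and -2.26, and proteasome subunits move from 0.39 to 0.17.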

How the data were processed

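Whole-number counts of reads per locus were used as deposited by the authors in 1 table of RNA libraries. Trim Galore, STAR and HTSeq are named in the submitters' processing notes with the build TAIR10, without roles or versions. Reads on no locus (48.4% to 48.9% of each library) and on more than 1 locus (0.572% to 0.798%) stood in 5 summary rows that were left out of library sizes and tests. The 3 columns of the line without the fusca label held identical values and were counted as 1 library. The fit therefore held 7 distinct libraries.

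Loci were kept with filterByExpr on the WT and fusca libraries, scaled with trimmed-mean factors and tested with the edgeR 4.0.16 quasi-likelihood test in R 4.3.3, with Benjamini-Hochberg adjustment over all 21820 tested loci of the table and a threshold of 0.05. DESeq2 1.42.0 was an alternative. On counts simulated for fusca against WT over 20952 loci, 93.9% of 4-fold and 66% of 2-fold changes were recovered, with 10 false calls among 164. The simulation changed few loci, as many up as down, and gave no replicate a length effect. The data differ in these settings, so the rates hold for the simulated setting only. Symbols and gene spans came from a RefSeq gene table, which matched 28009 of the 28496 nuclear loci.

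Genes were named by fixed rules: at most 3 called members of each of 54 lists by size of change and with groups that do not overlap, the 12 largest increases and decreases among called genes with a symbol, at least 20 CPM in the higher group and no overlap, with photosynthesis and pigment genes left out by name, the 12 most abundant per kilobase of span in each group, HY5, HYH, COP1 and DET1, the 10 most stable at 50 CPM or more, and the 10 farthest above and below in fusca replicate 2. Other list members named were chosen after their values were seen. The lists and the comparison were chosen with earlier results of these data known, and the patterns of 16 families were tightened after the gene names were seen. Same-numbered WT and fusca libraries correlated at -0.045, -0.115 and -0.2 in their deviations from the group means. Deviations must cancel within each group of 3 libraries, so these correlations cannot decide whether the numbers pair the samples. Some list members are not reported here by name.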

Additional observations from a re-analysis of the deposited data

Results flagged for a closer look

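Transposable-element loci, which lie outside the comparison of nuclear genes, took 1.87% of counts in the mean of the fusca libraries and 0.961% in that of the WT libraries, with fusca at 1.78%, 1.85% and 1.99% and WT between 0.950% and 0.983%. The library of the same line without the fusca label stood at 1.81%, near the fusca level. Mitochondrial-genome loci took 0.171% in fusca and 0.0564% in WT, with fusca replicates 1, 2 and 3 at 0.124%, 0.256% and 0.134% and the library without the fusca label at 0.0464%. Reads assigned to more than 1 locus made up 0.748% in fusca, 0.575% in WT and 0.594% in the library without the fusca label. Each of the 3 shares was singled out because it lay above the level of the WT libraries in data outside the main measurement. Their part in the results above was not tested.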

How the results depend on the processing

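With library size only, 11948 genes were called, 9503 higher and 2445 lower, and with upper-quartile factors 4852 were higher. The other settings gave 6191 to 7418 calls with all libraries, against 7046. Leaving out 1 library at a time gave 5101 to 10079 calls, with 2132 (without WT replicate 2) to 4837 higher (without fusca replicate 2). The fit with the replicate block gave 6191 calls.

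List medians are given here over the median of all nuclear genes. Without the count filter the median was -0.48 for jasmonate, 1.44 for senescence, 0.32 for the shoot apex, 0.11 for expansins, 0.026 for glycosyltransferases and 0.69 for NAC factors, and with a mean of at least 10 counts 6.23 for seed maturation. Leaving out single libraries gave medians from -0.13 to 0.054 for salicylate, 0.40 to 0.66 for gibberellin, -0.024 to 0.19 for light signalling, -1.35 to -0.99 for aliphatic glucosinolates, -0.96 to -0.86 for plastid fatty acids, -0.089 to 3.21 for seed maturation, -0.43 to -0.12 for aquaporins, 0.49 to 0.69 for NAC factors and -0.59 to -0.39 for arabinogalactan proteins. The cause of these moves was not tested. Leaving MOP10 out of the plastid ribosomal list, a choice made after seeing the data, gave -2.08. The direction of light signalling turned without fusca replicate 1 and without fusca replicate 3, and that of seed maturation without fusca replicate 2. Some other medians near that of all genes also changed side. Glycosyltransferases and expansins lay below it in the main fit and above it without the count filter. Salicylate lay below it in the main fit and on both sides when single libraries were left out.

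Among single genes, library size only gave 0.056 for TUB8, 0.29 for HYH and 0.21 for COP1. Leaving out single libraries gave -0.31 to 0.015 for HYH and -0.024 to 0.23 for DET1. Depth limits low genes: 3 counts is the floor used for every bound, and it covers counting error only.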
